A study of Mus musculus with 24 samples.

Results

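The 112 probes described here read long noncoding RNAs (lncRNAs) that a supplementary list of the study places in testis. They were taken from the part of that list that could be read, its first 165 entries. An entry was left out where the study also lists it beside protein-coding genes, as conserved, as kept in cell lines or for RT-PCR, and where it carries 1 of 4 symbols of abundant testis lncRNAs. This removed 53 entries, and the array holds 60804 transcript probes in all. The readable part runs from strong to weak testis signal (Spearman's rho = -0.94 between list order and mean testis level over the 112 probes). If that order holds over the unread entries, which could not be checked, these are the bright end of the list. The members were thus chosen by their signals and detection flags on these same arrays, so the differences between testis and the other tissues, and the absence from the cell lines, are given below as descriptions with no test.

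RNA came from 8 groups of 3 arrays, 24 in all. Brain, heart, kidney, liver and testis were from male ICR mice 8 weeks old, and the methods call the arrays of a tissue biological replicates. The lines were F9, of embryonal carcinoma origin, GC-1, which resembles spermatogonia, and GC-2, which resembles spermatocytes, all grown in serum medium and F9 without retinoic acid, which would make it differentiate. Nothing in the sources says that the arrays of a line were separate cultures, so p-values between lines measure the spread between these samples only. A tissue is a mixture of cell types, and fewer cells of a type cannot be told apart from less RNA per cell.

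Long noncoding RNAs are transcripts that carry no long open reading frame. Testis expresses more of them than most organs, and many appear in meiotic and postmeiotic germ cells, whose chromatin is broadly open to transcription. Some lie inside or antisense to protein-coding genes, which are then called their host genes, and others lie in intergenic sequence far from any coding gene. An entry with a host symbol, such as Cylc2, is listed as a noncoding transcript of that locus and not as the mRNA. The probe sequences could not be read, so signal from the mRNA of the locus cannot be told apart from it.

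The control regions of 4 members are shown. Among members with a RefSeq lncRNA gene and 1 promoter listed, these had the largest lower bounds of testis over the other tissues, defined below. Gm2762 overlaps the coding gene Gm38564, 4933406F09Rik lies 199 bases from LOC115485924, 4930557F10Rik lies 25881 bases from Vmn1r223, a vomeronasal receptor gene, and 1700010K23Rik overlaps Cadm2, which encodes a cell adhesion molecule. Each run holds 250 bases before and 50 bases from the RefSeq start of the gene, read 5′ to 3′ on the gene's strand from the RefSeq annotation of GRCm38.p6. The probed transcript may start elsewhere. Capitals mark every match, on either strand, to the short motifs TGACGTCA and its shorter form TGACG (the cyclic AMP response element), TAACTG (the A-MYB motif), GTTGCC (an RFX motif) and TATAAA (the TATA box). Every match to TGACGTCA also holds TGACG.
Gm2762, chr13:53393439-53393738, plus strand: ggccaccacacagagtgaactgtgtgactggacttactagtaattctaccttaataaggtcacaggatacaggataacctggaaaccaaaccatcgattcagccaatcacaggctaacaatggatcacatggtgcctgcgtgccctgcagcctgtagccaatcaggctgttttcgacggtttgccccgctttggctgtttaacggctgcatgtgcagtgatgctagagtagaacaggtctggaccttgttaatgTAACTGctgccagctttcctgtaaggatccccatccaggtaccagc
4933406F09Rik, chr14:7412223-7412522, plus strand: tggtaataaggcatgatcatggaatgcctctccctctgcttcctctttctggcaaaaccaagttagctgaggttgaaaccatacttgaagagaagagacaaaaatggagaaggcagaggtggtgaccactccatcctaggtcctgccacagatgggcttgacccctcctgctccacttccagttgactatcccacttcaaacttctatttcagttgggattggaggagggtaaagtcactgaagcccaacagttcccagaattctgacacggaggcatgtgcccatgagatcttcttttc
4930557F10Rik, chr13:23313358-23313657, minus strand: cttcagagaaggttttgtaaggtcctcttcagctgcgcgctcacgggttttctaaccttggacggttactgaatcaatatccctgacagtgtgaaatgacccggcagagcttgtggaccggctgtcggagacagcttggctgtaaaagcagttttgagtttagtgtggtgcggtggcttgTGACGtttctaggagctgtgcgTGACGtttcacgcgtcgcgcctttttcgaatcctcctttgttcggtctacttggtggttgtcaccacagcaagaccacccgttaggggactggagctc
1700010K23Rik, chr16:66656868-66657167, plus strand: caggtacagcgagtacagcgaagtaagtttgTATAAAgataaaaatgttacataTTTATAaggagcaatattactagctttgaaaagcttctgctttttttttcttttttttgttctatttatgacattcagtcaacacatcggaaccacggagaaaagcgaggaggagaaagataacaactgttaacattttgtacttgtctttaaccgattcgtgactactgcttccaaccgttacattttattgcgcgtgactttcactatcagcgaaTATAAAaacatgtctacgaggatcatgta

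Gm2762 holds 1 TAACTG, 4930557F10Rik 2 copies of TGACG, 1700010K23Rik 3 matches to TATAAA, and 4933406F09Rik none of the 5 motifs. Over the 28 member lncRNA genes with a promoter in the reference table, TAACTG was in 8 (28.6%), against 11.4% of all 27025 genes and 14.4% of lncRNA genes. TATAAA was in 7 (25%), against 15.7% of all genes and 17.3% of lncRNA genes. TGACG was also in 7 of 28 (25%), against 23.0% of all genes and 17.2% of lncRNA genes, and GTTGCC was in 2 (7.14%), against 14.1% and 13.8%. The full TGACGTCA was in none, against 2.03% and 1.09%. These counts describe the letters in windows of 300 bases and were not tested. The median GC content was 51.7% in the 28 windows and 52.7% in all.

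Levels are given in 2 ways. An intensity is the processed signal of a probe on 1 array, after the scanner software's background subtraction and with no scaling between arrays. A level is the log2 of that intensity minus the log2 of the array's 75th percentile over all 60804 probes. That percentile ran from 30.7 on a liver array to 384 on a testis array, and the arrays had between 18257 and 37393 probes well above background by the scanner's flag. Liver replicate 1 stood apart, since the 95th percentile of its negative control spots was 13.6 against 2.97 to 4.97 on the other 23 arrays. The smallest and median bounds and the called liver differences are therefore also given without it. Other counts and medians for liver include it unless stated. Replicate 1 of every group shared slide 1. Replicates 2 and 3 were on slide 2 for brain, kidney, liver and testis, and on slide 3 for heart and the lines. In comparisons of heart with another tissue, tissue and slide thus cannot be fully told apart. Of 42 marker genes for these tissues and lines, 3 had an mRNA probe that could be located. Stra8, a germ cell gene of meiotic entry, read 304 to 406 in testis and 143 to 325 in F9. It was well above background on 0 arrays of GC-1 (3.40 to 4.09) and 0 of GC-2 (3.45 to 3.94). Star, the cholesterol carrier of Leydig cells, read 1753 to 2218 in testis. It was also well above background on all 3 arrays of GC-1 (16.9 to 33.0) and of GC-2 (19.5 to 153). The pluripotency gene Zfp42 read 1965 to 2055 in F9 and 97.7 to 123 in testis. The brain entries Snap25 and Mobp, read by noncoding probes, were at 305 to 524 and 5699 to 10686 on the brain arrays. A noncoding probe of Gap43, a neuronal growth gene, read 18866 to 25837 in brain. It was also well above background on 2 heart arrays and on all 3 arrays of each line, at 2015 to 5317 in F9. For liver, a noncoding probe of the marker gene Apoa1 read 66.1 to 110 on the 3 liver arrays and was well above background on no other array. The other labels could not be checked against mRNA markers.

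All 112 probes were well above background on 3 of 3 testis arrays, as were 55.3% of all probes, and for all 112 each testis array exceeded each of the other 21 arrays, as for 10.5% of all probes. The choice of members fixes both counts. Single testis intensities lay between 3224 and 68059 with a median of 8101. On the 12 arrays of the other tissues the same probes read between 2.19 and 94.4 with a median of 3.18, and on the 9 arrays of the lines between 2.70 and 105 with a median of 3.69. Mean testis levels ran from 3.53 to 7.49 on the log2 scale, with a median of 4.57. The median SD over the testis arrays was 0.13 for the members against 0.20 for all probes detected in testis, and 111 members had an SD under 0.5. The choice of members by p-value and signal on these arrays favours a small SD. Probes detected in testis also reach down to background, so the 2 medians are not alike in brightness.

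**Figure D1:**
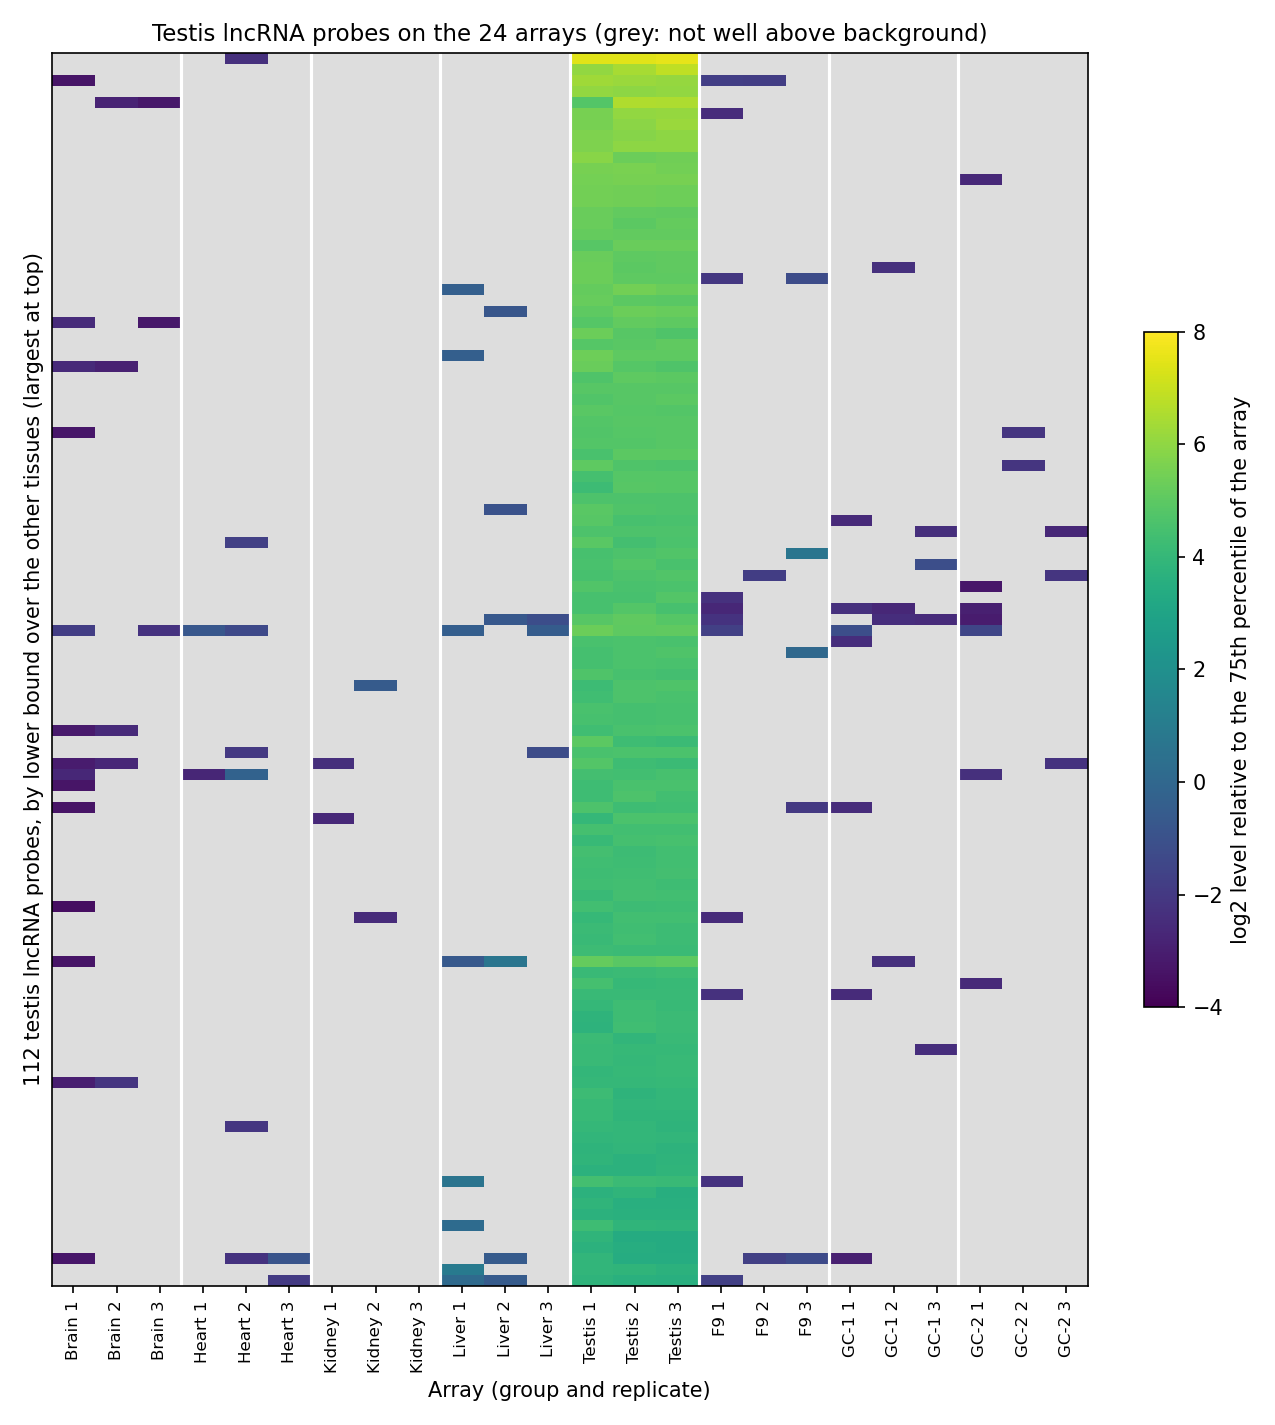
Levels of the 112 probes (rows, ordered by their lower bound over the other tissues) on the 24 arrays (columns), as log2 relative to the 75th percentile of the array, with grey where a probe was not well above background. The 3 testis columns are filled for every probe, while the other columns are mostly grey, with between 0 and 14 filled cells each.

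Since most members were not well above background outside testis, their excess in testis is a lower bound. The mean testis level was set against the mean, over the 3 arrays of the other group, of the lowest level well above background on that array or the probe's own level, whichever was higher. The smallest bound over the 4 other tissues ran from 20.5-fold to 440-fold, with a median of 57.1-fold. Over liver alone the median was the same, since liver set the bound for all 112 probes. It was 258-fold over brain, 150-fold over heart and 156-fold over kidney. Over the lines the medians were 122-fold for F9, 166-fold for GC-1 and 183-fold for GC-2. The lowest level well above background was -1.61 to -0.98 on the liver arrays and -3.81 to -3.12 on the brain arrays. For most members the bound rests on these limits alone, so the order of the groups does not rank their expression. At least 50-fold over every other tissue was reached by 71 members, at least 100-fold by 14 and at least 200-fold by 2. Without liver replicate 1 the smallest bound was 25.7-fold and the median 62.9-fold.

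**Figure D2:**
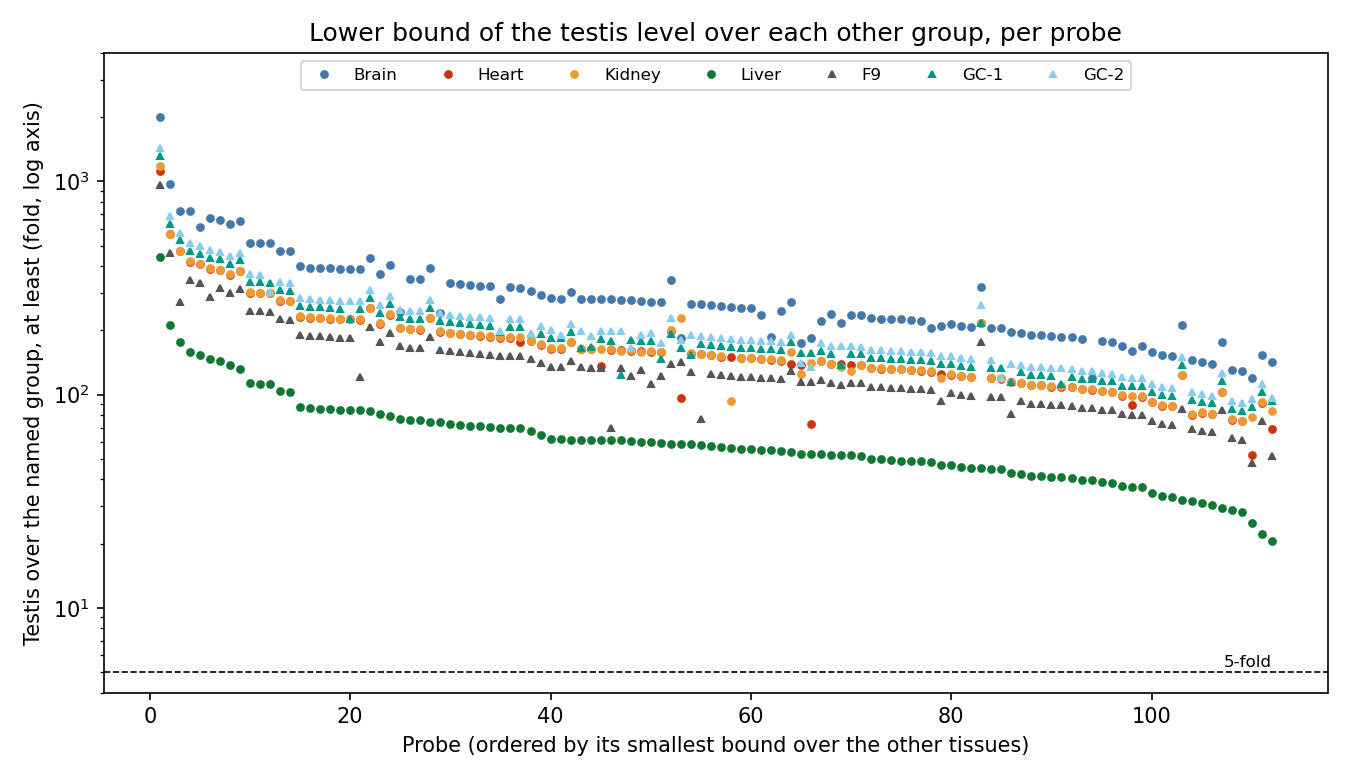
Lower bound of the testis level over each of the 7 other groups for each probe (fold, log axis), with probes ordered by their smallest bound over the other tissues, circles for tissues and triangles for lines. The liver points form the lower edge for every probe, from 440-fold down to 20.5-fold, and all points lie above the dashed line at 5-fold. The lowest level well above background was highest on the liver arrays, so the order of the groups does not rank their expression.

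Among the members named for a host gene, Cylc2 stood out by the size of its bound. Cylc2 encodes cylicin 2, a cytoskeletal protein of the sperm head, and its gene spans 51216653 to 51250625 on chromosome 4. The probe listed for the noncoding Cylc2 transcript read 25559.6, 26003 and 39233 on the testis arrays, and between 2.69 and 6.69 on the other 21. No array outside testis was well above background. Its testis level was 6.44 ± 0.40 (SD, n = 3). This put testis at least 212-fold over the other tissues and at least 463-fold over the lines.

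Zpbp2, an acrosomal protein that binds the egg's zona pellucida, has its gene on chromosome 11 from 98551097 to 98558665. The probe listed for its noncoding transcript read 8669.7, 6796 and 7704 in testis, where the scaled level was 4.49 ± 0.01 (SD, n = 3). Elsewhere it read 13.3 or less, with no array well above background, so testis was at least 55.1-fold above the other tissues. Tex29, a testis-expressed gene on chromosome 8 from 11840487 to 11855761, gave 10512, 8978 and 10027 in testis. Its other 21 arrays read 11.2 or less and none was well above background, which puts testis at least 70.3-fold higher. Syngr4, of the synaptogyrin family of vesicle membrane proteins, gave 6771, 5326 and 5945 in testis. Here replicate 1 of F9 (21.3) and of GC-1 (23.0) were well above background while their other arrays were not, and testis was at least 42.9-fold above the tissues and 80.7-fold above the lines.

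Ppp1r42 encodes a leucine-rich repeat protein that regulates protein phosphatase 1 in testis, and lies on chromosome 1 from 9968622 to 10013541. The Ppp1r42 probe read 13861, 9382 and 11162 in testis and 31.5, 47.9 and 16.3 in liver, the first 2 liver arrays well above background. In brain it read 15.6, 14.9 and 9.95, with replicate 1 well above background, and in GC-1 only replicate 2 (20.8) was. Testis was at least 45.2-fold above liver. Vwa3b, which encodes a protein with a von Willebrand factor A domain, had the smallest bound of all members, at least 20.5-fold. Its testis intensities were 5443, 3757 and 4049, and liver read 54.9, 20.6 and 7.40, again with the first 2 arrays well above background. RefSeq lists 4921511C04Rik as another name of Vwa3b, and this member, picked after its values were seen, read 5862, 5075 and 5774 in testis and was well above background on no array elsewhere. The 2 probes of the Vwa3b locus were thus both bright in testis, and only 1 of them was seen in liver.

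A further 3 symbols carry 2 probes each, for different transcripts. Gm2762 lies on chromosome 13 from 53393689 to 53455630. Its transcript uc007qnl.2 read 29570.4, 22269.8 and 22968 in testis, at least 177-fold above the other tissues. Its transcript NR_037991 read 11495, 10335 and 9713, at least 58.7-fold above them. The 2 probes differed outside testis: uc007qnl.2 was well above background on 2 F9 arrays and 1 brain array (15.4) and on no liver or GC-1 array, whereas NR_037991 was so on 2 liver and 2 GC-1 arrays, 1 F9 array and 1 GC-2 array. AK006024 gave 14919, 10589 and 11497 in testis for uc007sdi.1 and 13852, 10632 and 11736 for uc007sed.1. Neither was well above background on any other array, and the bounds were 87.4-fold and 86.0-fold. Both probes of 1700080N15Rik, which overlaps Frmd4a on chromosome 2, were also testis-only apart from liver replicate 2 (17.9) for ENSMUST00000141488. Their testis readings were 12633, 11948 and 12675 for ENSMUST00000141488 and 6946, 6181 and 6441 for NR_040500.

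The Speer genes are a rodent family of spermatogenesis-associated glutamate-rich proteins, and 2 of their pseudogene entries are members. Speer6-ps1 read 18007, 18465 and 24608 in testis, at least 144-fold above the other tissues. Speer1-ps1, which RefSeq now names Speer1 and treats as coding, read 8991, 9584 and 10585, at least 69.5-fold above them. Neither was well above background on an array outside testis. Probes of near-identical family copies can share signal, so these values may not belong to 1 locus alone.

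The largest bound was that of AK017048, a cDNA clone with no RefSeq gene matched here. It read 68059, 53686 and 63252 in testis, a level of 7.49 ± 0.05 (SD, n = 3), and was at least 440-fold above every other tissue. Of the 21 other arrays only heart replicate 2 (14.7) was well above background. After Cylc2 and Gm2762 uc007qnl.2, the next bounds were those of 4933406F09Rik (25336, 19049 and 22306 in testis, at least 158-fold) and 1700108N11Rik (at least 153-fold). The latter is a RefSeq synonym of Ovol2, a zinc-finger transcription factor, and it read 10584, 29418 and 31597 in testis, so replicate 1 was well below the others. Its SD of 1.03 on the log2 scale was the widest of the members, followed by AK017104 at 0.43 and Cylc2 at 0.40. AK017104 was spread the other way, with 11963 on replicate 1 and 5950.4 and 6056 on the other two.

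At the small end, after Vwa3b, came AK076878 (at least 22.2-fold), 1700023L04Rik (at least 25.0-fold), BC048001 (at least 28.2-fold) and AK015031 (at least 28.6-fold). BC048001 and AK015031 were well above background on no array outside testis, and their testis readings were 4979, 3411 and 3585 for BC048001 and 5541, 3224 and 3565 for AK015031. Their small bounds therefore come with testis signals at the low end of the members. AK076878 read 5772, 4390.4 and 4396 in testis and 94.4, 3.27 and 5.46 in liver, the first of these being the highest reading of a member on any array of another tissue. That array is the one with the high negative controls. 1700023L04Rik was well above background in part of 5 other groups, with heart at 8.86, 15.6 and 35.0 and F9 at 11.7, 22.1 and 26.5, against 5804, 3278 and 3629.8 in testis.

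Outside testis, no member was well above background on all 3 arrays of a group, which the choice of members again fixes. With the tissues taken alone, 81 of the 112 were well above background on none of the 12 arrays and 31 on at least 1, of which 24 were so in a single tissue. By tissue, 15 members were well above background on at least 1 brain array, 13 on a liver, 8 on a heart and 4 on a kidney array. Among the lines, F9 showed 16 members, GC-1 13 and GC-2 12, and 82 members were well above background on no line array. In all, 63 members were seen on the testis arrays only. The shares of other probes for these counts over several arrays were not taken, so none is read as high or low. For comparison, 5725 probes (9.42%) had the same pattern of flags as the members, and the 5613 of them that are no members give a baseline for single arrays. Brain replicate 1 showed 12.5% of the members and 13.9% of these probes, and F9 replicate 1 showed 9.82% against 6.56%. On the 9 line arrays and 12 tissue arrays the members' share ran from 0% to 12.5% and that of the other probes from 1.35% to 13.9%. In 6 of the 7 groups replicate 1, which shared a slide, held the most members or tied for it, heart being the exception. The other probes were also seen most on replicate 1, in each of the 7 groups. In heart their share was 8.62%, 5.38% and 1.60% on replicates 1 to 3. The pattern is thus not particular to the members.

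**Figure D3:**
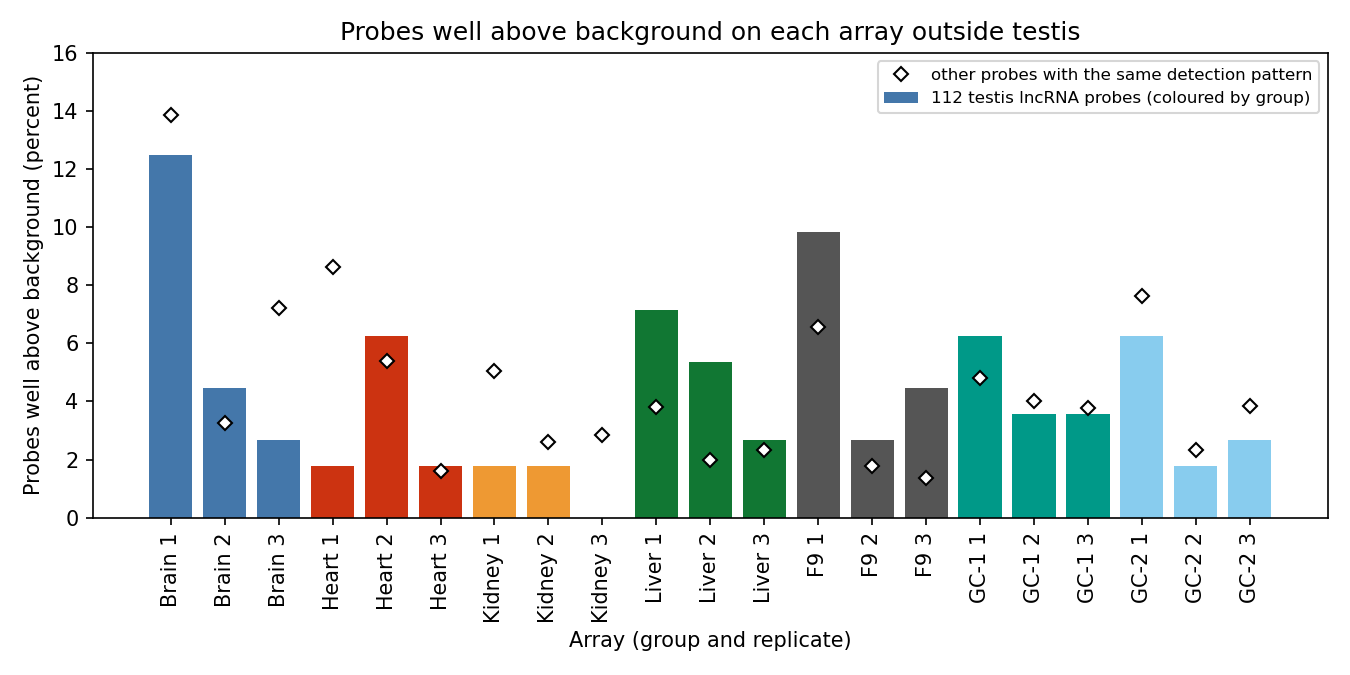
Share of probes well above background on each of the 21 arrays outside testis, as bars for the 112 testis lncRNA probes and diamonds for the 5613 other probes with the same detection pattern. Bars reach 12.5% on brain replicate 1 and 0% on kidney replicate 3, and diamonds 13.9% on brain replicate 1.

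The members seen on 2 arrays of a group give the clearest traces outside testis. In brain, AK005752 read 19.5, 26.9 and 7.16 and AK076935 read 18.1, 18.9 and 14.6, against testis readings of 4896 to 6088 and of 5958 to 10701. In kidney no member reached 2 arrays, and Gm20621 was well above background on 1 of its readings of 13.9, 13.5 and 11.8. In GC-1, 1700125H03Rik read 26.2, 16.7 and 10.1, the first 2 well above background, and its gene overlaps Csgalnact1, an enzyme gene of chondroitin sulfate synthesis. In GC-2 only single arrays were above background, such as 24.9 beside 7.90 and 11.7 for Gm1141. The members nearest the limit set for the lines were AK018940, well above background on 2 of 3 F9 arrays at a mean level of -1.87, and, outside it, Gm6455 NR_003596, which was left out for 3 of 3 GC-2 arrays at a mean level of -2.44.

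Which other tissue came nearest to testis depended on the scaling. With levels relative to the 75th percentile, liver had the highest mean level for 103 of the 112 members, and brain, heart and kidney for 3 each. With quantile normalization liver was nearest for 59, heart for 27, kidney for 14 and brain for 12. On unscaled intensities, an alternative added after the data were seen, liver was nearest for 56, brain for 26, heart for 22 and kidney for 8. All of these counts include liver replicate 1. Liver had the lowest 75th percentiles, 30.7 to 49.8, against 63.5 to 154 on the other somatic arrays, and the members' median intensity was 3.46 in liver, 3.17 in brain, 3.15 in kidney and 3.09 in heart. What part the scaling, the high controls of liver replicate 1 and the transcripts each have in the place of liver was not tested.

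**Figure D4:**
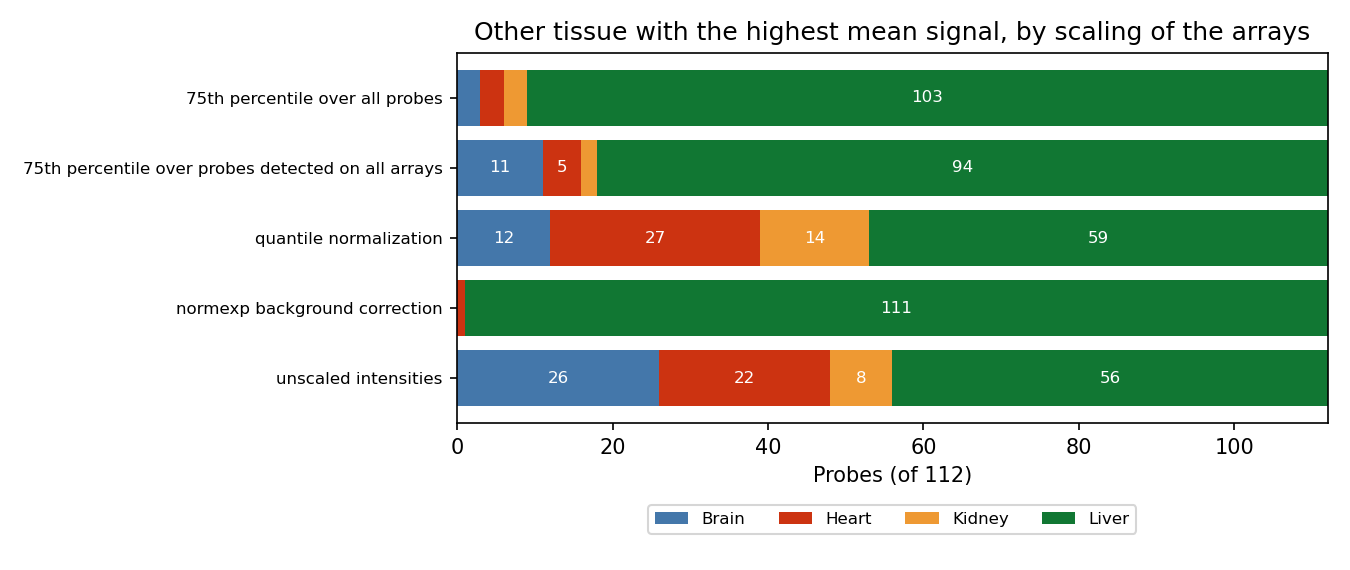
Number of the 112 probes whose highest mean signal outside testis was in brain, heart, kidney or liver, as stacked bars for 5 ways of scaling the arrays. Liver takes the most under each, from 56 on unscaled intensities to 111 with normexp background correction.

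To ask whether the weak signals outside testis differed between the other tissues, the 15 tissue arrays were fitted with limma over all 60804 probes. A difference was called at an adjusted p of 0.05 or less with the higher group well above background on at least 2 arrays. The members called, beside the share of all probes called, were 4 (29.4%) for brain against heart, 3 (30.6%) for brain against kidney, 4 (31.9%) for brain against liver, 1 (21.9%) for heart against kidney, 3 (26.9%) for heart against liver and 4 (21.4%) for kidney against liver. The members had to be absent from these tissues, so low counts follow from the choice. Without the detection rule, 59, 44, 95, 5, 85 and 91 members had an adjusted p of 0.05 or less in limma, in that order. Of all 60804 probes, 30296, 30297, 44043, 15010, 38858 and 37156 did. The 19 called differences belong to 8 members. The members' median difference was -2.17 for brain minus liver, -1.31 for heart minus liver and -1.41 for kidney minus liver, against medians over all probes of -1.23, -0.88 and -0.93. For brain minus heart, brain minus kidney and heart minus kidney it was -0.78, -0.74 and 0.08, against -0.62, -0.56 and 0.04. The medians over all probes lay on the liver side too, so a difference from liver is also given relative to them where it matters. Folds given below as at least allow for readings not well above background, but not for the choice of scaling.

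In liver, the Ppp1r42 probe was the clearest. Its liver readings of 31.5, 47.9 and 16.3 lay above all readings in brain, heart and kidney, also unscaled, the highest of those being 15.6 in brain. The log2 difference of brain minus liver was -2.95 ± 0.46 (SE, adjusted p = 4.63e-05, limma with Benjamini-Hochberg adjustment), or -1.72 relative to the median of all probes. Scaled, liver was at least 7.10-fold above brain, where 1 of 3 arrays was well above background. It was at least 4.77-fold above heart (adjusted p = 1.62e-05, limma) and at least 4.80-fold above kidney (adjusted p = 1.63e-05, limma). Relative to the median of all probes, heart minus liver was -2.79 and kidney minus liver -2.87. Over the alternatives run, the fitted differences from liver were as small as -1.21 for brain, -0.94 for heart and -0.91 for kidney. Without liver replicate 1 the adjusted p values of limma were 0.000169 against brain, 7.35e-05 against heart and 7.52e-05 against kidney, but just 1 of the 2 arrays left was well above background, which ended the call, as it did without liver replicate 2.

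The probe named Vwa3b read 54.9, 20.6 and 7.40 in liver, and its lowest liver reading lay under the highest unscaled reading of each other tissue. Scaled, it was at least 5.74-fold above brain (9.39, 4.60 and 7.11, adjusted p = 2.92e-05, limma) and at least 3.35-fold above kidney (8.33, 3.37 and 3.68, adjusted p = 0.000219, limma). Relative to the median of all probes, brain minus liver was -2.17 and kidney minus liver -2.27 on the log2 scale. Against heart (13.9, 14.2 and 16.1, the last well above background) the groups overlapped on both scales, with at least 2.77-fold and an adjusted p of 0.0206 by limma. Heart minus liver was -1.47 on the log2 scale but -0.58 relative to the median of all probes. That call was lost without liver replicate 1 (adjusted p = 0.115, limma), without liver replicate 2 and without heart replicate 1, and with the percentile taken over probes detected on all arrays (adjusted p = 0.0636, limma). The calls over brain and kidney ended without liver replicate 1 or 2, when 1 array above background was left, with adjusted p of 0.00159 or less by limma over all omissions.

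Gm2762 NR_037991 read 9.77, 19.2 and 18.3 in liver, the last 2 well above background, so that this call does not rest on the array with high controls. Brain read 8.79, 7.38 and 11.6, heart 7.98, 4.37 and 3.10, and kidney 3.79, 5.65 and 2.96. Scaled, liver was at least 4.26-fold above brain (adjusted p = 2.88e-05, limma), 2.48-fold above heart (5.51e-05) and 2.49-fold above kidney (2.32e-05). Its lowest unscaled reading lay under the highest of brain. Relative to the median of all probes, the log2 differences from liver were -1.31 for brain, -1.78 for heart and -2.08 for kidney. Over the alternatives run, the fitted differences were as small as -1.24, -0.76 and -0.83 in that order. Without liver replicate 1 Gm2762 NR_037991 stayed called, and without liver replicate 2 or 3 only 1 array above background was left.

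Gm9766 was the member seen in the most places. RefSeq lists the symbol as a synonym of Cep85l, a centrosomal protein gene on chromosome 10 from 53273441 to 53379883, whose span also holds Pln, the phospholamban gene of heart muscle. It read 64.6, 28.8 and 12.9 in heart, 44.0, 13.2 and 31.0 in brain, 37.8, 8.91 and 28.2 in liver and 10.1, 4.14 and 2.84 in kidney, with 2 arrays well above background in heart, brain and liver and none in kidney. Testis read 15205, 10031 and 11362, at least 58.6-fold above each of them. Heart was at least 2.37-fold, brain at least 1.23-fold and liver at least 3.49-fold above kidney (adjusted p = 0.000821, 0.0145 and 0.000177, limma with Benjamini-Hochberg adjustment). Brain minus liver was -1.51 ± 0.49 on the log2 scale (SE, adjusted p = 0.0132, limma) but -0.28 relative to the median of all probes, with overlapping intensities, and this call was lost without liver replicate 1 (adjusted p = 0.0549, limma) or brain replicate 2 (adjusted p = 0.0712, limma), and with the percentile over probes detected on all arrays (adjusted p = 0.142, limma). Brain over kidney was lost with normexp correction (adjusted p = 0.704, limma) and without brain replicate 1 (adjusted p = 0.0697, limma) or kidney replicate 3. For want of a second array above background, heart over kidney ended without heart replicate 1 or 2, liver over kidney without liver replicate 1 or 3, brain over kidney without brain replicate 3, and liver over brain without liver replicate 3. Replicate 1 of F9 (31.3), GC-1 (60.6) and GC-2 (51.6) was well above background too, and their other arrays were not.

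Besides Gm9766 over kidney, 3 members were called higher in brain, also with no overlap of the groups. AK147121 read 17.9, 20.2 and 11.4 in brain against 3.23 or less in heart and 3.05 or less in kidney (adjusted p = 0.000961 and 0.000527, limma). AK133405 read 26.0, 16.2 and 12.0 in brain against 3.10 or less in heart and 3.19 or less in kidney (adjusted p = 0.000464 and 0.000372, limma). 1700108N11Rik, at the Ovol2 locus, read 10.8, 17.0 and 15.9 in brain against 3.53 or less in heart (adjusted p = 0.0355, limma). No fold is given for these, since their brain level was under the lowest level well above background in heart and kidney. Each had 2 brain arrays well above background. The AK147121 and AK133405 calls ended without brain replicate 1 or 2, for lack of a second such array, and that of 1700108N11Rik without brain replicate 2 or 3 or any heart array (highest adjusted p = 0.119, limma). With normexp background correction all 5 of these differences changed sign. AK076905 read 16.4, 62.8 and 5.47 in heart and 24.5, 6.87 and 3.72 in brain, overlapping groups with an adjusted p of 0.0433 by limma that rose past 0.05 in 9 of 15 omissions, up to 0.232. With quantile normalization neither AK076905 (adjusted p = 0.106, limma) nor 1700108N11Rik (adjusted p = 0.124, limma) was called, and with the slide as a block their adjusted p values by limma were 0.584 and 0.124.

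**Figure D5:**
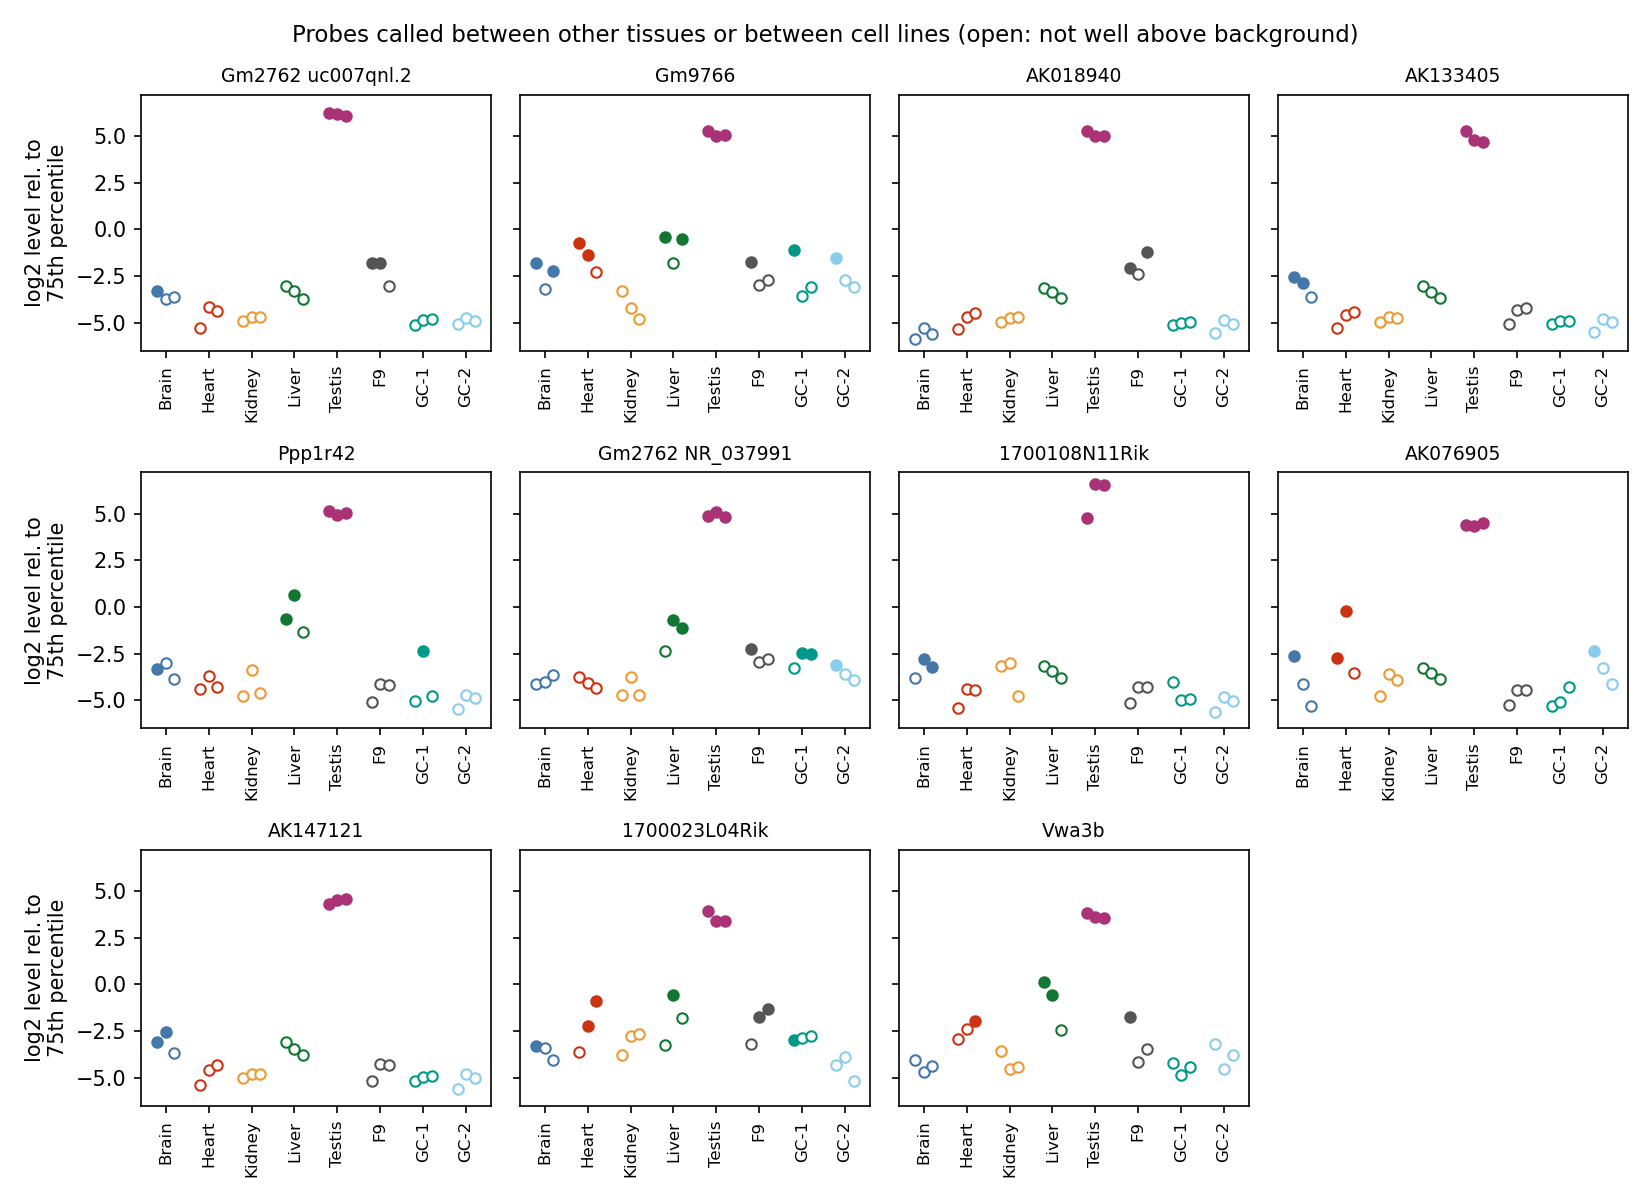
Levels of the members called between other tissues or between lines on all 24 arrays (log2 relative to the 75th percentile of the array), 1 panel per member, filled where a probe was well above background and open where not. Testis points sit between 3 and 7, above every other group, and each called group holds 2 filled points.

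Between the lines, a fit of their 9 arrays called 2 members (20% of all probes) for F9 against GC-1, 3 (19.1%) for F9 against GC-2 and 0 (8.28%) for GC-1 against GC-2. In the last comparison 13 members had an unadjusted p under 0.05 in limma. The share of all probes at that threshold was not taken, so this count is not read as high or low. The adjusted threshold was passed by 4 members, beside 5610 of all 60804 probes, but none of the 4 was well above background on 2 arrays. The members' median differences were 0.41 for F9 minus GC-1, 0.56 for F9 minus GC-2 and 0.13 for GC-1 minus GC-2, against 0.40, 0.52 and 0.12 over all probes.

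All 5 called differences were higher in F9. AK018940 read 25.2, 14.1 and 28.6 in F9, 3.75, 3.33 and 3.16 in GC-1 and 3.17, 3.69 and 3.39 in GC-2. Every F9 array lay above the others. The mean F9 level was at least 1.99-fold over GC-1 (adjusted p = 7.33e-05, limma) and 2.17-fold over GC-2 (adjusted p = 5.7e-05, limma). Gm2762 uc007qnl.2 read 30.5, 20.7 and 7.96 in F9 and 4.40 or less in the other lines, at least 1.57-fold over GC-1 and 1.71-fold over GC-2 (adjusted p = 0.000279 and 0.000295, limma). 1700023L04Rik read 11.7, 22.1 and 26.5 in F9 and 7.22, 7.32 and 3.18 in GC-2, at least 1.90-fold higher in F9 (adjusted p = 0.0052, limma), while GC-1 read 16.8, 14.6 and 14.2. In testis these probes read 3278 or more. Each call rests on 2 F9 arrays above background and ended when either was left out (F9 replicates 1 and 3 for AK018940, 1 and 2 for Gm2762, 2 and 3 for 1700023L04Rik), with adjusted p of 0.0236 or less by limma throughout.

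By annotation the members were a mixed set. Of their names 49 are AK or BC cDNA clones, 30 RIKEN symbols, 21 Gm predicted genes and 12 others. RefSeq (GRCm38.p6) held 1 gene for 47 of the 112, by accession for 23, by symbol for 20 and by synonym for 4, of which 35 were lncRNA, 10 protein-coding and 2 transcribed pseudogene entries. The other 65 had no match, and 1 matched gene has no position in the table. Matched and unmatched members had like testis levels, with medians of 4.63 and 4.51, and like bounds, with medians of 58.7-fold and 54.8-fold. The placed members fall in 43 genes on 18 chromosomes, with no more than 4 on any.

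Of the 34 noncoding genes and pseudogenes, 10 overlapped a protein-coding gene, 2 lay within 10000 bases of one and 22 further away, 8 of these by more than 100000 bases. The choice of members in part fixes these counts, since it removed the entries listed by the study beside a coding gene within 10000 bases. The median distance was 21171 bases, and the spans ran from 1016 to 95334 bases. The overlapped coding genes have varied roles. 1700010K23Rik overlaps Cadm2, Tmem132cos overlaps Tmem132c, and Gm15904 overlaps Azin2, a regulator of polyamine synthesis. 1700110K17Rik overlaps Gramd1b, a cholesterol transfer protein, and 1700030C12Rik overlaps Ahsa2, a cochaperone gene. 4930555J06Rik, which RefSeq names Arl4aos, lies 90 bases from Arl4a, a small GTPase gene, and read 14951, 9669 and 11478 in testis, at least 84.8-fold above the other tissues. Of its other arrays only GC-1 replicate 2 (21.2) was well above background. The mRNA probes of these host and neighbour genes could not be located, so whether a host transcript follows its lncRNA was not analysed here.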

How the data were processed

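Total RNA was labeled with Cy3 and hybridized to 1-color lncRNA arrays. The authors deposited 1 Feature Extraction 11.5.1.1 file per array with the intensity of each spot, and a matrix that held the same processed intensities (largest relative difference 0.000228), unscaled. The GeneSpring GX normalization named in the methods was not repeated, and the authors' listed folds and p-values were not used. The log2 of the processed signal minus the 75th percentile of each array was fitted with limma 3.58.1 (R 4.3.3), separately for the 15 tissue and the 9 line arrays, with Benjamini-Hochberg adjustment over 60804 probes. The fit was tested on simulated data with 200 changed probes. Normexp used the median signals with an offset of 50, since no mean signals were held. The remaining steps ran in Python 3.11.15 (matplotlib 3.10.9 for plots, scipy 1.17.1, pandas 2.3.3, numpy 2.4.6). The members and lists were chosen with earlier results of these data known. Named were members with host symbols or shared symbols, Speer entries, the 5 largest and 5 smallest bounds, up to 2 members seen on the most arrays of each group, the 3 widest testis SDs and up to 2 called members per comparison, 32 in all. Alternatives were other scalings, background corrections, detection flags, filters, blocks and omitted arrays. Precision is limited by there being 3 arrays in a group.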

Additional observations from a re-analysis of the deposited data

How the results depend on the processing

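All 112 members kept a bound of at least 5-fold over the other tissues under every scaling, background correction and omitted array that was run (112 to 112 over the omissions). The median bound of 57.1-fold became 143-fold with the percentile taken over probes detected on all arrays, 86.1-fold with quantile normalization, 29.6-fold with normexp correction and 51.6 to 62.9-fold with single arrays left out. The smallest bound of 20.5-fold became 51.2, 27.8 and 10.8-fold under those 3 alternatives, 27.2-fold without the 2 tissue arrays that had a scan of their own (added after the data were seen) and 14.8 to 25.7-fold over the omissions. The median testis level of 4.57 became 1.16, 11.88 and 4.31, and 4.55 to 4.60 over the omissions. Liver was nearest for 59 members with quantile normalization, 56 on unscaled intensities and 97 to 103 over the omissions. With the scanner's looser flag (signal positive and significant), 30 members were seen on all 3 arrays of brain, 14 of heart, 13 of kidney, 6 of liver, 20 of F9, 20 of GC-1 and 21 of GC-2, and with 1 array enough 15, 8, 4, 13, 16, 13 and 12 were above background. The shares of all probes for these counts were not taken. The 8 members called between the other tissues were 4 to 8 over the omissions, with 4 without liver replicate 2 and 5 without brain replicate 2. By comparison the omissions gave 1 to 4 for brain against heart (2 with quantile normalization and 2 with the slide as a block), 0 to 3 for brain against kidney (0 with normexp), 1 to 4 for brain against liver (7 with quantile normalization), 0 to 2 for heart against kidney (2 with the percentile over detected probes and 2 with a filter on dim probes), 0 to 4 for heart against liver and 1 to 4 for kidney against liver. A group reduced to 2 arrays needs both above background, which makes these calls stricter by construction. The lowest counts came without brain replicate 2 for brain against heart, brain replicate 1 for brain against kidney, liver replicate 1 or 2 for brain or kidney against liver, liver replicate 2 for heart against liver and heart replicate 1 or 2 for heart against kidney, where 2 were called without brain replicate 1 or 3 or heart replicate 3. Each liver array left out gave 2 or fewer for brain or kidney against liver, and without liver replicate 1 heart against liver had 1. In the lines the 3 called members were 1 to 3, with 1 without any 1 of the F9 arrays, and 1 to 2 for F9 against GC-1, 1 to 3 for F9 against GC-2 and 0 to 0 for GC-1 against GC-2. Under normexp the brain differences reversed, for AK147121 to -0.20 over heart and -0.19 over kidney, for 1700108N11Rik to -0.19 over heart and for AK133405 to -0.11 over heart and -0.039 over kidney. The cause was not tested. The deviations of same-numbered arrays correlated across probes at -0.15 to 0.22 in tissues, over 0.1 in 4 of 18 pairs, and at 0.05 to 0.33 in lines, over 0.1 in 8 of 9 pairs. Arrays of 1 number thus deviated together in most line pairs, and those of replicate 1 also shared a slide. Pairing was taken as shown only where every pair was over 0.1, which neither set met. The replicate block gave 8 called members in tissues and 3 in lines. Signals near background limit all differences outside testis.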
